A study of Mus musculus with 4 samples.

Results

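The insulin-like growth factor (IGF) system was followed at the RNA level in primary rib chondrocytes, the cells that make cartilage, with and without a floxed Senp6 gene exposed to Cre. The set was 10 genes chosen by symbol: the ligands Igf1 and Igf2, the receptors Igf1r and Igf2r, and the binding proteins Igfbp2, Igfbp3, Igfbp4, Igfbp5, Igfbp6 and Igfbp7. They were 10 of the 18298 genes with a read in at least 1 of 4 samples, and each of the 10 was among the 14123 genes tested. The 2 control samples were Senp6f/f cells without Cre, labelled WT, and the 2 mutant samples were Dermo1-Cre;Senp6f/f cells. Both groups were on a C57BL/6 background, carried the floxed Senp6 alleles, came from rib cartilage of E18.5 embryos, and were cultured to passage 1 in α-MEM with 10% fetal bovine serum. Dermo1-Cre drives Cre from Twist2, also called Dermo1, in progenitors of bone and cartilage, so cells of other origins in a culture may keep an intact gene. The labels do not say whether replicates came from separate embryos or were pooled, and p-values measure only the spread between these samples.

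IGF-I and IGF-II are secreted growth factors that activate the same tyrosine kinase receptor, IGF1R, and through it the IRS, PI3K and AKT proteins. IGF2R binds IGF-II without passing on that signal and carries it into the cell for breakdown. The IGF binding proteins hold the ligands outside the cell, and proteases such as PAPP-A release them by cutting the binding protein. In the growth plate the system drives proliferation and enlargement of chondrocytes, and mice that lack its ligands or IGF1R are born small or grow poorly.

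Igf1 was the member with the largest difference between genotypes, at 3.02-fold higher in control than in mutant cells, followed by Igfbp4 at 2.50-fold and Igfbp5 at 1.93-fold. Igf1r had the opposite direction and was 1.42-fold higher in mutant cells. None of these differences passed an adjusted p of 0.05 in edgeR's quasi-likelihood test, which called 0% of all genes tested. DESeq2, run on the same counts, called these 4 genes, 3 lower and 1 higher in the mutant, where it called 2.01% of its 13301 genes lower and 3.3% higher. Igf2, by far the most abundant member, differed by 1.25-fold and was called by neither tool.

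The stretches before the start of transcription are shown for the 3 genes that stood for different behaviours: Igfbp4 and Igfbp5, lower in both mutant samples, and Igf1r, higher in both. They were chosen after the values were seen and were copied from the RefSeq table of promoters for GRCm38.p6, in which all 10 members matched, with 14 start sites. The 250 bases before the start were searched on both strands for the TATA box core (TATAAA), the CCAAT box (CCAAT), the GC box (GGGCGG) and an E-box (CACGTG), and capitals mark the matches.
Igfbp4 (chr11:99040994-99041243, + strand): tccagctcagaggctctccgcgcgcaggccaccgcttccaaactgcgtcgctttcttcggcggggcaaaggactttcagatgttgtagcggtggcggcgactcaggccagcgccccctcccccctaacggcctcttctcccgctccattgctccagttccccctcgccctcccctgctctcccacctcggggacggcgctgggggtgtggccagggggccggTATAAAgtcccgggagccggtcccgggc
Igfbp5 (chr1:72874885-72875115, - strand): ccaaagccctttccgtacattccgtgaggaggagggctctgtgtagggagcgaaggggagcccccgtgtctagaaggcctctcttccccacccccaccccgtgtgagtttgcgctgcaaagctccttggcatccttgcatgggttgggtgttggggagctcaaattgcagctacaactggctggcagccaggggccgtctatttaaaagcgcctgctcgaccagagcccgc
Igf1r (chr7:67952007-67952256, + strand): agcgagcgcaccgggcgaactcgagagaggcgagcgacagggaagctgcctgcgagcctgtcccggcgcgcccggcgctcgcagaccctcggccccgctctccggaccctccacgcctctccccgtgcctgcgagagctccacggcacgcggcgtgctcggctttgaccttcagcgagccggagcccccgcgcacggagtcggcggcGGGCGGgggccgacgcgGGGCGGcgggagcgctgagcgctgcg
The Igfbp4 stretch held 1 TATA box core, which began 28 bases before the start. The Igf1r stretch held 2 GC boxes, beginning 43 and 26 bases before the start. Its GC content was 77.6% and that of the Igfbp4 stretch was 69.2%, against a median of 52.4% over all 32851 windows. The Igfbp5 stretch, cut to 231 bases to stop short of an annotated exon, held none of the 4 motifs in these letters. The TATA box core was found in 12.4% of all windows, the CCAAT box in 33.85%, the GC box in 32.7% and the E-box in 6.02%. Among the members the TATA box core was found before Igfbp4 and Igfbp6, and the E-box before Igf2r and Igfbp2. The window before the Igf1 start overlapped exons of other Igf1 transcripts and is not printed, and it held 1 CCAAT box. The GC box was found in 6 of the 14 member windows and so before 5 members. Igf1r, Igf2r and Igfbp7 were higher in both mutant samples. Igf2 and Igfbp2 were lower on the scaled counts, but their estimates were -0.08 and -0.06 without control replicate 1. A tie between motif and difference was not tested.

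Levels are given as RPKM, the reads of a gene per kilobase of its length and per 1000000 reads counted on genes, as the authors deposited them. The depth was 21.02 M to 31.0 M reads (M is 1000000) counted on genes per sample, and the members held between 1545 and 146539 reads each, with 88.3% to 100% of their length covered. Log2 fold changes and standard errors (SE) are from edgeR on the counts, with p-values adjusted over all genes tested, and a negative value means lower in the mutant. Senp6 itself was at an RPKM of 10.8 and 18.0 in the control and 12.0 and 8.07 in the mutant samples, with a log2 fold change of -0.56 (SE 0.28, adjusted p = 0.410, edgeR). Its reads were counted over the whole gene, so they do not test the loss of the floxed exons. The control replicates differed more from each other than the mutant replicates, with a median absolute log2 difference over genes of 0.26 against 0.15. Estimates with a control replicate left out are given for most members and for some of the named pathway genes. The mutant samples differed in the sex they showed, as 11354 reads of Xist were counted in replicate 2 and at most 5 in each other sample. Reads of the Y-linked gene Ddx3y were 818 and 1150 in the control and 1601 and 3 in the mutant samples. Sex was thus not balanced between the genotypes, and its part was not tested.

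The 10 members spanned a wide range of levels. In control cells the order of mean RPKM was Igf2, Igfbp4, Igfbp7, Igfbp2, Igfbp5, Igfbp6, Igf2r, Igfbp3, Igf1 and Igf1r. Igfbp2 and Igfbp5 did not separate in that order, nor did Igfbp5 and Igfbp6, since the ranges of their replicates overlapped. The range of Igfbp5 also took in Igf2r: Igfbp5 held place 5 in control replicate 1 and place 7 in control replicate 2. In both mutant samples Igf1 took the last place, below Igf1r, and Igfbp5 held place 8 in replicate 1 and place 7 in replicate 2, with a range that overlapped that of Igfbp3. The members took 1.06% and 0.769% of the reads in the control and 0.713% and 0.697% in the mutant samples, most of them from Igf2. The plot of levels by sample shows the 10 genes side by side.

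**Figure D1:**
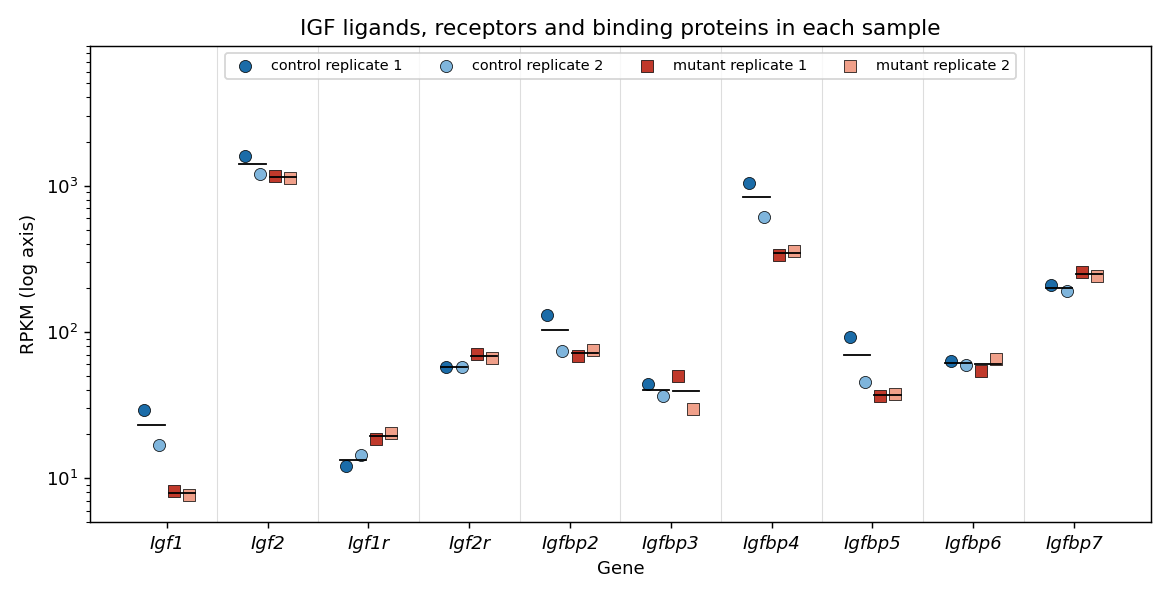
RPKM (log axis) of each of the 10 genes in the 2 control samples (circles) and the 2 mutant samples (squares), with a short line at the mean of each group. Both mutant samples sit below both controls for Igf1 and Igfbp4, with a wider distance between the 2 controls than between the 2 mutants.

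Igf1, on chromosome 10 (87858265 to 87937042, + strand, GRCm38), encodes IGF-I, the ligand that relays much of the action of growth hormone. Its RPKM was 29.4 and 16.7 in the control samples, replicate 1 first here and throughout, and 8.15 and 7.68 in the mutant samples, from 4400, 3114, 1798 and 1545 reads. Both mutant samples were below both controls, and the lower control was still 2.05 times the higher mutant on the scaled counts. The log2 fold change was -1.59 (SE 0.28, adjusted p = 0.0873, edgeR), larger than the 0.87 between the controls and the 0.12 between the mutants. DESeq2 gave -1.61 (adjusted p = 7.35e-07). Leaving out control replicate 1 moved the edgeR estimate to -1.10, and leaving out control replicate 2 moved it to -1.99. It was -1.66 without mutant replicate 1 and -1.53 without mutant replicate 2. These fits leave 1 sample in an arm, which is then assumed to vary like the other group. Only the estimates of such fits are given for each gene.

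Igf2, on chromosome 7 (142650766 to 142666816, - strand, GRCm38), encodes IGF-II, the ligand that supports growth before birth, and is expressed from the paternal allele in most embryonic tissues. Its RPKM was 1585 and 1205 in the control and 1171 and 1132 in the mutant samples, which placed it 23rd, 29th, 30th and 36th among all genes. Control replicate 1 was the high sample, and control replicate 2 was only 1.03 times mutant replicate 1 on the scaled counts. The log2 fold change was -0.32 (SE 0.18, adjusted p = 0.457, edgeR), less than the 0.45 between the controls. The estimate shrank to -0.08 when control replicate 1 was left out and grew to -0.56 when control replicate 2 was. The counts may carry a limit of annotation. In GENCODE M21, Gm49394, a protein-coding gene model on the same strand, shares 3596 exon bases with Igf2. The annotation behind the counts is not given, so whether it held Gm49394 is not known. The library protocol names no step that keeps the strand, so reads of the antisense gene Igf2os could be included.

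The balance of the ligands differed between the genotypes. Igf2 exceeded Igf1 by 53.9 and 72.0 times in RPKM in the control samples and by 144 and 147 times in the mutant samples, with no overlap between the groups. Igf1 made up 1.82% and 1.37% of the summed ligand RPKM in the controls and 0.691% and 0.674% in the mutants. No test was run on these ratios, which combine the genes tested above. An exact permutation test of 2 against 2 samples could not give a p below 0.333.

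Igf1r, on chromosome 7 (67952827 to 68233668, + strand, GRCm38), encodes the receptor kinase that both ligands activate. Its RPKM was 12.1 and 14.4 in the control and 18.46 and 20.4 in the mutant samples, from 3047, 4517, 6854 and 6910 reads. Both mutant samples were above both controls. The log2 fold change was 0.51 (SE 0.13, adjusted p = 0.149, edgeR), against 0.20 between the controls and 0.11 between the mutants. DESeq2 gave 0.50 (adjusted p = 0.0417). The edgeR estimate ranged from 0.41 to 0.58 with each sample left out, and was highest without control replicate 2.

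Igf2r, on chromosome 17 (12682406 to 12769664, - strand, GRCm38), encodes the scavenging receptor for IGF-II, which also sorts lysosomal enzymes. Its RPKM was 57.6 and 57.2 in the control and 70.1 and 66.8 in the mutant samples. The controls nearly coincided and lay below both mutants, by a log2 fold change of 0.21 (SE 0.12, adjusted p = 0.486, edgeR). The ratio of Igf1r to Igf2r RPKM was 0.210 and 0.252 in the controls and 0.264 and 0.306 in the mutants. The antisense gene Airn overlaps the Igf2r locus but shares no exon bases with it.

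Igfbp4, on chromosome 11 (99041244 to 99054392, + strand, GRCm38), encodes the binding protein that PAPP-A cuts in the presence of IGF. Its RPKM was 1049 and 610 in the control and 333 and 354 in the mutant samples, from 45611, 32967, 21341 and 20713 reads. Both mutant samples were well below both controls, and the lower control was 1.76 times the higher mutant on the scaled counts. The log2 fold change was -1.32 (SE 0.27, adjusted p = 0.0990, edgeR), against 0.84 between the controls and 0.05 between the mutants. DESeq2 gave -1.34 (adjusted p = 2.07e-05). Without control replicate 1 the edgeR estimate was -0.85, and without control replicate 2 it was -1.71. It was -1.30 without mutant replicate 1 and -1.35 without mutant replicate 2.

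Igfbp5 and Igfbp2 lie next to each other on chromosome 1 of GRCm38, on opposite strands and 5.46 kb apart (72857932 to 72874884 and 72824503 to 72852474). IGFBP5 binds to bone and cartilage matrix, and IGFBP2 is one of the main binding proteins of the fetus. The RPKM of Igfbp5 was 92.4 and 45.7 in the control and 36.6 and 37.5 in the mutant samples. The groups did not overlap, but most of the distance came from control replicate 1. Its log2 fold change was -0.95 (SE 0.32, adjusted p = 0.227, edgeR; DESeq2 adjusted p = 0.0240), which was less than the 1.07 between the controls. The estimate shrank to -0.32 when control replicate 1 was left out and grew to -1.42 when control replicate 2 was.

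The RPKM of Igfbp2 was 130 and 74.1 in the control and 68.7 and 75.4 in the mutant samples. Control replicate 1 alone was high, and the other 3 samples were close together. The log2 fold change of -0.55 (SE 0.27, adjusted p = 0.393, edgeR) was less than the 0.87 between the controls. It shrank to -0.06 when control replicate 1 was left out, and with control replicate 2 left out it was -0.95. On the scaled counts both mutants were below both controls by the narrowest margin of any member, a ratio of 1.01, and in RPKM the groups overlapped.

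Igfbp7, on chromosome 5 (77349240 to 77408041, - strand, GRCm38), encodes a secreted protein that binds IGFs only weakly. Its RPKM was 210 and 190 in the control and 256 and 242 in the mutant samples. Both mutant samples were above both controls, and the log2 fold change was 0.27 (SE 0.13, adjusted p = 0.398, edgeR), against 0.20 between the controls. With control replicate 1 left out the estimate was 0.37, and with control replicate 2 left out it was 0.15, less than that gap. Polr2b, on the opposite strand, shares 85 exon bases with it.

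Igfbp3 and Igfbp6 did not separate the genotypes. IGFBP3 is the main carrier of IGFs in serum, and IGFBP6 prefers IGF-II. Igfbp3, on chromosome 11 (7206086 to 7213923, - strand, GRCm38), had an RPKM of 44.0 and 36.3 in the control and 49.7 and 29.6 in the mutant samples. The mutants were the highest and the lowest of the 4, 0.79 apart on the log2 scale. The log2 fold change was -0.06 (SE 0.26, adjusted p = 0.942, edgeR) and was positive without control replicate 1 (0.12) or mutant replicate 2 (0.28). Igfbp6, on chromosome 15 (102144362 to 102149511, + strand, GRCm38), had an RPKM of 62.8 and 59.7 in the control and 54.2 and 65.5 in the mutant samples, with a log2 fold change of -0.08 (SE 0.14, adjusted p = 0.844, edgeR). Its estimate ranged from -0.20 to 0.035 with each sample left out, and was -0.017 without control replicate 1.

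The differences in single genes added up to another make-up of binding protein RNA. The summed RPKM of the 6 binding proteins was 1588 and 1015 in the control and 798 and 805 in the mutant samples. Igfbp4 supplied 66.1% and 60.0% of it in the controls and 41.7% and 44.1% in the mutants. The share of Igfbp7 was 13.2% and 18.7% in the controls and 32.1% and 30.1% in the mutants, with no overlap between the groups. Shares of a sum depend on each other, so a lower Igfbp4 raises the share of Igfbp7. The level of Igfbp7 itself was 1.21-fold higher in the mutant (adjusted p = 0.398, edgeR). The summed ligand RPKM over the summed binding protein RPKM was 1.02 and 1.20 in the controls and 1.48 and 1.42 in the mutants. These sums describe RNA, and neither protein nor the IGF that serum brings to the medium was measured.

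**Figure D2:**
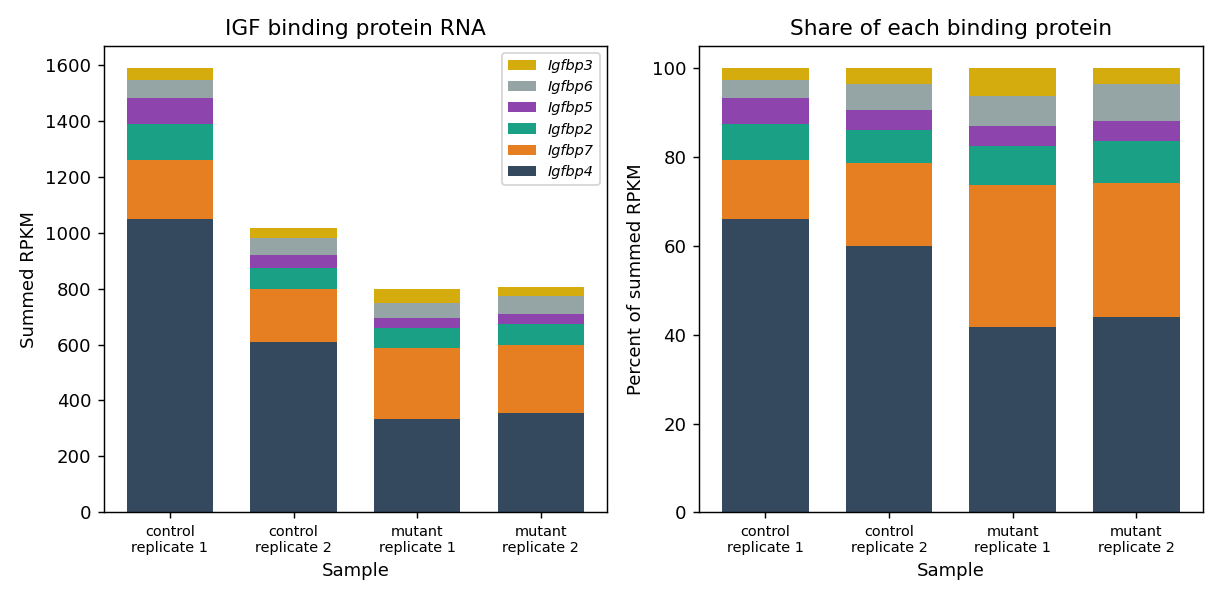
Summed RPKM of the 6 IGF binding proteins in each sample (left) and the percent of that sum from each gene (right), as stacked bars. The Igfbp4 part is 66.1% and 60.0% in the control samples and 41.7% and 44.1% in the mutant samples, and the Igfbp7 part is larger in both mutant samples.

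Over the 10 members, 5 were lower in both mutant samples than in both controls on the scaled counts (Igf1, Igf2, Igfbp2, Igfbp4 and Igfbp5), where this held for 22.8% of all genes tested. Another 3 were higher in both (Igf1r, Igf2r and Igfbp7), where this held for 25.4%. At an unadjusted p under 0.05 in edgeR 3 members were lower (Igf1, Igfbp4 and Igfbp5), against 6.28% of all genes, and 1 was higher (Igf1r), against 9.29%. The median log2 fold change of the members was -0.20, against 0.01 for all genes tested. The difference exceeded the gap within both pairs of replicates for 5 members, Igf1, Igfbp4, Igf1r, Igf2r and Igfbp7, where this held for 33.1% of all genes tested. The gap between the controls was the larger gap in 7 of the 10 members.

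**Figure D3:**
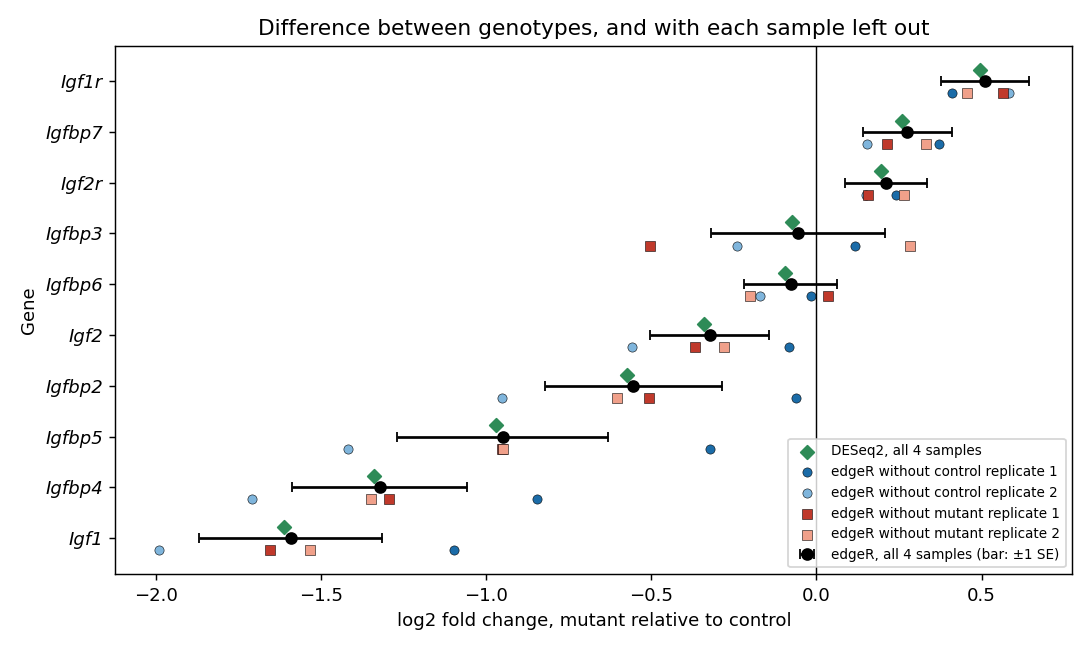
Log2 fold change of each of the 10 genes, mutant relative to control, from edgeR with all 4 samples (black, bar ±1 SE), from DESeq2 (diamonds) and from edgeR with 1 sample left out (coloured points). Igf1 and Igfbp4 stay below 0 whichever sample is left out, Igfbp2 reaches -0.06 without control replicate 1, and Igfbp3 and Igfbp6 cross 0.

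The other genes of the pathway were taken from 5 lists of 66 genes, of which 64 had a read and 60 were tested. edgeR called none of them, against 0% of all genes. At an unadjusted p under 0.05 in edgeR 4 were higher and 6 lower, where all genes tested gave 9.29% and 6.28%, and DESeq2 called 2 lower and 0 higher, against 2.01% and 3.3%. Both mutant samples were above both controls for 15 of the 60, against 25.4% of all genes tested, and below for 18, against 22.8%. Their median log2 fold change was -0.06.

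Among the 9 tested genes listed for the cleavage and carriage of the complexes, not all of which cut or carry them, 4 were lower in both mutant samples (22.8% of all genes). In the same list 1 was higher in both (25.4%). Pappa2 encodes a protease that frees IGF from IGFBP3 and IGFBP5, and its RPKM was 5.44 and 4.97 in the control and 2.96 and 3.82 in the mutant samples. Its log2 fold change was -0.66 (SE 0.17, adjusted p = 0.140, edgeR), and DESeq2 called it (adjusted p = 0.0282). The groups overlapped for Pappa, which encodes PAPP-A, at a log2 fold change of 0.14 (SE 0.15, adjusted p = 0.706, edgeR). Stc1, from the stanniocalcin family, had a log2 fold change of -0.64 (adjusted p = 0.239, edgeR), and Adam12, a metalloprotease that can cut IGFBP3 and IGFBP5, had -0.56 (adjusted p = 0.426, edgeR). The Adam12 estimate turned on the mutant replicates, at -1.11 without replicate 1 and -0.16 without replicate 2. Igfals, which encodes the acid-labile subunit of the serum complex, had the largest estimate of the list, -1.92 (SE 0.81, adjusted p = 0.331, edgeR). That estimate rested on 1 sample, since the Igfals RPKM was 1.06 in control replicate 1 and 0.199, 0.168 and 0.168 in the others, and without that sample the estimate was -0.26. Igfbp1, which lies next to Igfbp3, had no read in any sample.

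The relay from the receptor into the cell held 25 tested genes, with 9 higher (25.4% of all genes) and 5 lower (22.8%) in both mutant samples and a median log2 fold change of 0.08. Irs2, an adaptor of the receptor, had a log2 fold change of 0.48 (SE 0.18, adjusted p = 0.264, edgeR), and both its mutant samples, at an RPKM of 6.58 and 8.13, were above the controls at 5.58 and 4.63. The adaptor Irs1 had a log2 fold change of -0.50 (SE 0.25, adjusted p = 0.404, edgeR), with control replicate 1 at 25.9 and the other samples between 14.2 and 16.2, and an estimate of -0.08 without control replicate 1. Foxo1, a transcription factor that AKT keeps out of the nucleus, was at 4.50 and 5.68 in the control and 7.09 and 7.39 in the mutant samples. Its log2 fold change was 0.47 (SE 0.15, adjusted p = 0.216, edgeR), with 0.33 without control replicate 1 and 0.59 without control replicate 2. Pik3cb, a catalytic subunit of PI3K, had the largest estimate, 0.66 (SE 0.34, adjusted p = 0.423, edgeR), with control replicate 1 alone low at 1.36 and the other samples between 3.07 and 3.64, and an estimate of 0.21 without control replicate 1.

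**Figure D4:**
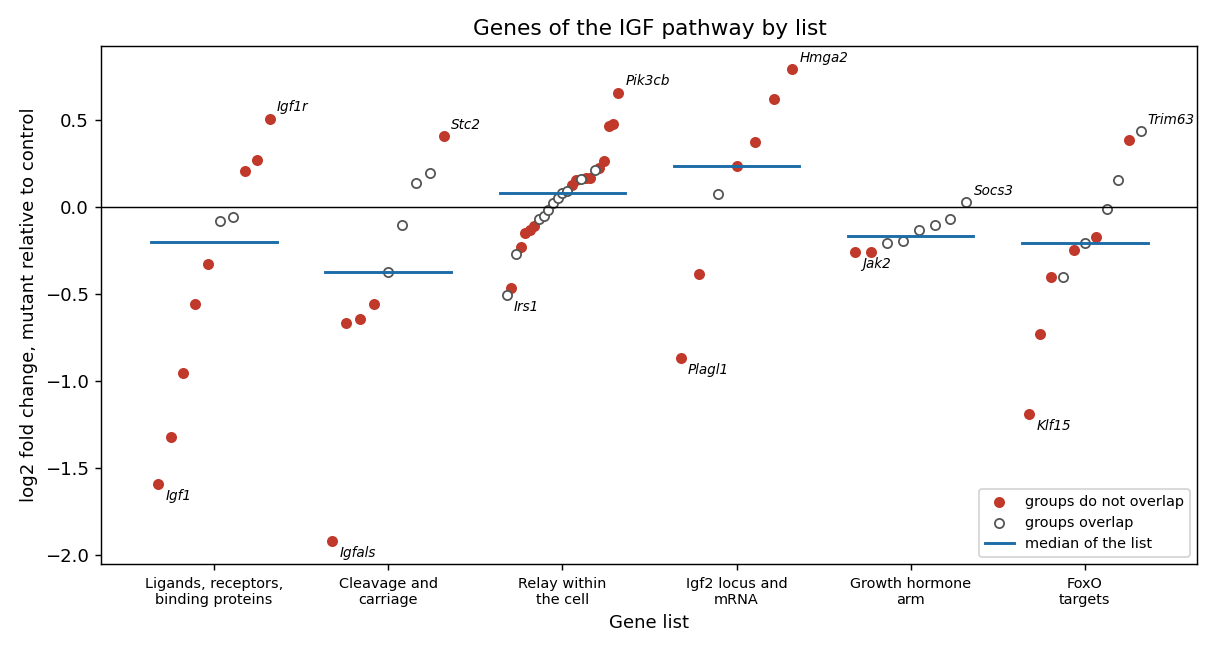
Log2 fold change, mutant relative to control, of the 10 members and of the tested genes of 5 lists of the IGF pathway. Filled points mark genes whose 2 control and 2 mutant samples do not overlap, open points genes that do, and the line is the median of the list, which lies at -0.20 for the members and 0.08 for the relay within the cell.

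Of the 7 tested genes tied to the Igf2 locus or its mRNA, 4 were higher (25.4% of all genes) and 2 lower (22.8%) in both mutant samples. H19, the maternally expressed RNA that neighbours Igf2 at a distance of 72.6 kb, had an RPKM of 2820 and 2301 in the control and 2019 and 2037 in the mutant samples. Its log2 fold change was -0.38 (SE 0.16, adjusted p = 0.325, edgeR), beside -0.32 for Igf2. Plagl1, an imprinted zinc finger gene, was at 81.3 and 52.8 in the control and 42.5 and 33.5 in the mutant samples (log2 fold change -0.86, SE 0.25, adjusted p = 0.174, edgeR), and DESeq2 called it (adjusted p = 0.0121). Hmga2 and Plag1, known as activators of Igf2 transcription, had log2 fold changes of 0.79 (SE 0.35, adjusted p = 0.346, edgeR) and 0.62 (SE 0.25, adjusted p = 0.293, edgeR). The RPKM of Hmga2 was 27.9 in control replicate 1 and 66.3 in control replicate 2, and 86.7 and 80.0 in the mutants, and without control replicate 1 the Hmga2 estimate was 0.31. Without that sample the estimates were -0.49 for Plagl1 and -0.20 for H19.

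Growth hormone is the main inducer of Igf1 in the liver, and 8 genes of its receptor arm were tested. None was higher (25.4% of all genes) and 2 were lower (22.8%) in both mutant samples, with a median log2 fold change of -0.16. The estimates with the largest size were -0.26 for the kinase Jak2 (adjusted p = 0.455, edgeR), -0.25 for the transcription factor Stat5b (adjusted p = 0.418, edgeR), -0.21 for the receptor Ghr (adjusted p = 0.650, edgeR) and -0.19 for the inhibitor Socs1 (adjusted p = 0.791, edgeR). Ghr was at an RPKM of 18.7 and 14.4 in the control and 15.7 and 13.7 in the mutant samples, so its groups overlapped. Without control replicate 1 the estimates turned positive for Ghr (0.02) and Socs1 (0.24), and that of Jak2 was -0.13.

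FoxO factors are switched off by IGF signalling, and 11 of their target genes were tested. Both mutant samples were above the controls for 1 (25.4% of all genes) and below for 5 (22.8%), and the median log2 fold change was -0.21. Klf15, a zinc finger factor, had a log2 fold change of -1.19 (SE 0.39, adjusted p = 0.221, edgeR) at a low level, with an RPKM of 1.66 and 0.951 in the control and 0.591 and 0.586 in the mutant samples. Sesn1, a stress-induced inhibitor of mTORC1, had -0.73 (SE 0.23, adjusted p = 0.208, edgeR) and was at 12.9 and 8.38 in the control and 6.62 and 6.65 in the mutant samples. Trim63 (0.44, adjusted p = 0.798, edgeR) and the cell cycle inhibitor Cdkn1b (-0.40, adjusted p = 0.363, edgeR) completed the 4 with the largest log2 fold changes of this list. Without control replicate 1 the estimates were -0.71 for Klf15, -0.36 for Sesn1, 1.37 for Trim63 and -0.16 for Cdkn1b, and without control replicate 2 that of Trim63 was -0.22.

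The genes most like each ligand were sought among 11123 genes by the Euclidean distance of mean-centred log2 CPM (reads scaled to a common library size) over the 4 samples. For Igf1 they were Mme (distance 0.124), which encodes the cell surface peptidase neprilysin, the zinc finger gene Zfp423 (0.155) and Lgi2 (0.163). Mme was at an RPKM of 13.7 and 7.09 in the control and 3.63 and 3.21 in the mutant samples. For Igf2 they were Arfip2 (0.0229), Armc6 (0.0255) and Mid1 (0.0256). With 4 samples such likeness is a description of the order and spacing of 4 values.

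Summed marker levels did not overlap between the genotypes for the chondrocyte, osteoblast, skeletal muscle and macrophage lists. They overlapped for the fibroblast and endothelial lists. In bulk RNA, fewer cells of a type and less RNA per cell cannot be told apart. The chondrocyte list was expressed in every sample, led by Col2a1 at an RPKM of 609 and 659 in the control and 334 and 445 in the mutant samples. All 8 of its genes were lower in both mutant samples, where this held for 22.8% of all genes tested. Another 25.4% of all genes tested were higher in both, and these 2 shares are the background for each list below. The summed chondrocyte level was 831 and 830 in the control and 404 and 535 in the mutant samples. Fibroblast and perichondrium markers were also abundant, with summed levels of 12567 and 8756 in the control and 8885 and 6482 in the mutant samples, and 4 of 7 were lower and 1 higher in both mutants. The 4 tested osteoblast markers were lower in both mutants, with sums of 186 and 83.1 against 31.5 and 52.6, and Bglap was at or near 0. Skeletal muscle markers were higher in both mutants for 6 of 8, with sums of 92.7 and 31.9 in the control and 155 and 174 in the mutant samples, and Ckm was near 0 in all but control replicate 1. Macrophages, a known source of IGF-I, left little RNA: all 5 tested markers were lower in both mutants, with sums of 18.9 and 16.0 against 7.40 and 10.8, and Ptprc was at or near 0 in every sample. Endothelial sums were between 0.762 and 1.30 in all samples, and 1 of 4 markers was higher and 1 lower in both mutants, near those shares. Erythroid and hepatocyte lists were near 0, with no gene reaching the filter and Hbb-b1 and Ttr without a read. The part of any of these cells in the levels of Igf1, Igfbp4 and the other members was not tested.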

How the data were processed

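RNA of 2 control and 2 mutant cultures was enriched with oligo(dT) and sequenced by a service provider. The authors deposited for each gene the read count without normalization, the RPKM (scaled by gene length and by the total counted on genes) and how much of the gene's length reads covered, in percent. The submitters' processing notes name the build mm9 and SAMtools, and the aligner, counter and annotation are not given in the sources used here. The deposited values carry no coordinates. Positions come from GENCODE M21 (GRCm38) and promoters from RefSeq (GRCm38.p6).

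A gene absent from a sample's list was given a count of 0. From the counts, genotypes were compared in edgeR 4.0.16 under R 4.3.3 (robust quasi-likelihood fit, TMM factors 0.966 to 1.03). A gene was kept when 2 or more samples had 10 or more reads, which left 14123 genes, and p-values were adjusted over all of them by the Benjamini-Hochberg method. SE were derived from the F statistic. Alternatives were DESeq2 1.42.0, other filters and factors, limma 3.58.1 on log2(RPKM + 1) or log2(RPKM + 0.1), a replicate block, and leaving out each sample. The scripts were tested on simulated data.

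Replicates were not repeats of 1 library: chi-square per degree of freedom between paired counts was 51.5 (control) and 24.9 (mutant). Members, lists and tests were chosen with earlier results of these data known. Named genes were the 10 members, Senp6, and Pappa as the gene of PAPP-A. From the pathway lists they were genes past an adjusted p of 0.05 and, per list, up to 4 with the largest absolute log2 fold change. The 3 genes nearest to each ligand were taken among those with an RPKM of at least 1 in every sample.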

Additional observations from a re-analysis of the deposited data

How the results depend on the processing

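Over all genes, edgeR called 0 higher and 0 lower with all 4 samples, and at an unadjusted p under 0.05 it had 1312 higher and 887 lower. DESeq2 called 439 higher and 267 lower, edgeR without a filter on low counts 225 and 61, with library totals alone 6 and 2, and blocking on replicate 84 and 33. With 1 sample left out the calls ranged from 96 to 1331 higher and from 47 to 1492 lower, the most without control replicate 2.

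Of the members, DESeq2 called 1 higher and 3 lower, and of the other pathway genes it called 2 lower, against 3.3% higher and 2.01% lower over all its genes. With 1 sample left out the members called ranged from 0 to 1 higher and from 0 to 5 lower, and the other pathway genes from 0 to 21, the most again without control replicate 2. The block called 1 member lower, Igf1 (log2 fold change -1.53, edgeR adjusted p = 0.0442), and 0 higher. Over all 14123 genes tested the block called 33 lower and 84 higher. The labels do not say whether a shared replicate number pairs the samples. Replicate differences of control and mutant correlated at -0.04 over genes, which cannot settle this, since it compares 1 difference per genotype.

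Of 140 values of the members under the alternatives, 123 kept their direction and their side of the threshold, 14 passed it, and 3 changed sign. The sign changes were Igfbp3 without control replicate 1 (0.12) or without mutant replicate 2 (0.28), within a range of -0.50 to 0.28, and Igfbp6 without mutant replicate 1 (0.035), within a range of -0.20 to 0.035. The number of members whose groups do not overlap was 7 or 8 under the alternatives that kept all 4 samples, against 8 in the main setting. In the main setting 25.4% of all genes tested were higher and 22.8% lower in both mutants. The share over all genes was not counted under the alternatives. With a sample left out fewer values can overlap, so those counts are not compared. The cause of these differences was not tested. No alternative varied the depth, so its part was not tested.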
